A study of Mus musculus with 24 samples.

Results

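The comparison set normal hippocampus beside normal cerebellum in adult mice, in 8 libraries of messenger RNA out of 24 in the series. The 8 were chosen by their labels alone: the 4 hippocampus controls and the 4 cerebellum controls, each with replicates 14, 15, 16 and 17. All came from male C57BL/6J mice of 4 months that had been mock-injected, as controls for mice injected with LLC tumour cells that grew for about 3 weeks. The other libraries were 4 neocortex controls and 4 LLC libraries of each of the 3 regions. The labels call the libraries biological replicates without naming animals, so the tests below measure the spread between these libraries, which may in part be technical. RNA came from homogenised tissue, so a value is an average over all its cells. Values are TPM, a share of the library's transcripts corrected for transcript length. Of 47643 gene symbols, 15326 had a mean of at least 1 TPM in either region and were tested with limma on log2(TPM + 1). Differences are hippocampus minus cerebellum on that scale, so positive values mean higher in hippocampus, and changes of genes near 1 TPM are understated. A gene was called at a Benjamini-Hochberg adjusted p under 0.05, and every gene described below as higher in a region was called. Errors are SD over 4 libraries for TPM and SE for log2 differences.

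The hippocampus is a fold of the forebrain that serves memory and navigation. Its excitatory circuit runs from granule cells of the dentate gyrus through mossy cells and pyramidal cells of the CA fields, with interneurons born in the ventral forebrain. The cerebellum grows from the hindbrain and tunes movement. It holds a very large number of small excitatory granule cells, a single layer of inhibitory Purkinje cells whose axons are the output of its cortex, local interneurons, and Bergmann glia, astrocytes whose fibres accompany the Purkinje dendrites.

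Both regions were told apart by most of the genes they expressed. Of the 15326 genes tested, 12591 (82.2%) were called, 4165 of them (27.2%) higher in hippocampus and 8426 (55%) higher in cerebellum. With an absolute log2 difference of at least 1 as well, 3075 genes (20.1%) remained, 1336 (8.72%) higher in hippocampus and 1739 (11.3%) higher in cerebellum. All 4 libraries of a region lay on one side of all 4 of the other for 11779 of the tested genes (76.9%), 3840 (25.1%) with hippocampus higher and 7939 (51.8%) with cerebellum higher. The excess of calls toward cerebellum changed with scaling. The median log2 difference over all tested genes was -0.23, and median-ratio scaling moved it by 0.22 to -0.01, with 5977 calls (39%) toward hippocampus and 6034 (39.4%) toward cerebellum, and 1691 (11%) and 1252 (8.17%) past 1 log2 unit. Transcripts of the mitochondrial genome took 24.7% to 26.7% of the TPM in hippocampus and 20.3% to 22.1% in cerebellum. The part of these transcripts in the shift was not tested. Differences below are best read against the median of -0.23, and a direction is stated only where both scalings give it unless the text says otherwise. Counts of list members are on TPM and can differ with median-ratio scaling, also where no second count is given. They are to be read against the shares over all tested genes, 27.2% toward hippocampus and 55% toward cerebellum. With median-ratio scaling these shares are 39% and 39.4%. Near-equal TPM counts thus lean toward hippocampus relative to all genes. Pearson correlations of log2(TPM + 1) were 0.991 to 0.995 between hippocampus libraries, 0.994 to 0.997 between cerebellum libraries and 0.858 to 0.874 between regions.

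Selected markers went with the labelled tissue. The 3 genes Gabra6, Pcp2 and Cbln3, which mark cerebellar granule and Purkinje cells, stayed under 1 TPM in every hippocampus library. Spink8 and Fibcd1, of CA1, stayed under 1 TPM in every cerebellum library. All of these but Spink8 were also among the 12 largest differences of this contrast in their direction. Other listed markers were less confined: Zic1, of cerebellar granule cells, reached 27.8 TPM in hippocampus replicate 16. Neighbouring tissue differed between libraries. The 16 choroid plexus genes summed to 3119, 257, 211 and 5011 TPM in hippocampus replicates 14 to 17, in that order, and to 6567, 5817, 5538 and 6523 TPM in cerebellum. Hippocampus replicates 14 and 17 thus held far more plexus RNA than 15 and 16, and all 4 lay below cerebellum. The 21 genes of brainstem and deep nuclei summed to 519.8, 281, 364 and 254 TPM in cerebellum, highest in replicate 14, and to 61.5, 87.7, 71.1 and 72.8 TPM in hippocampus. The part of such tissue in other differences was not tested. Without hippocampus replicates 14 and 17, 11768 genes were called, 3094 of them with an absolute log2 difference of at least 1.

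**Figure D1:**
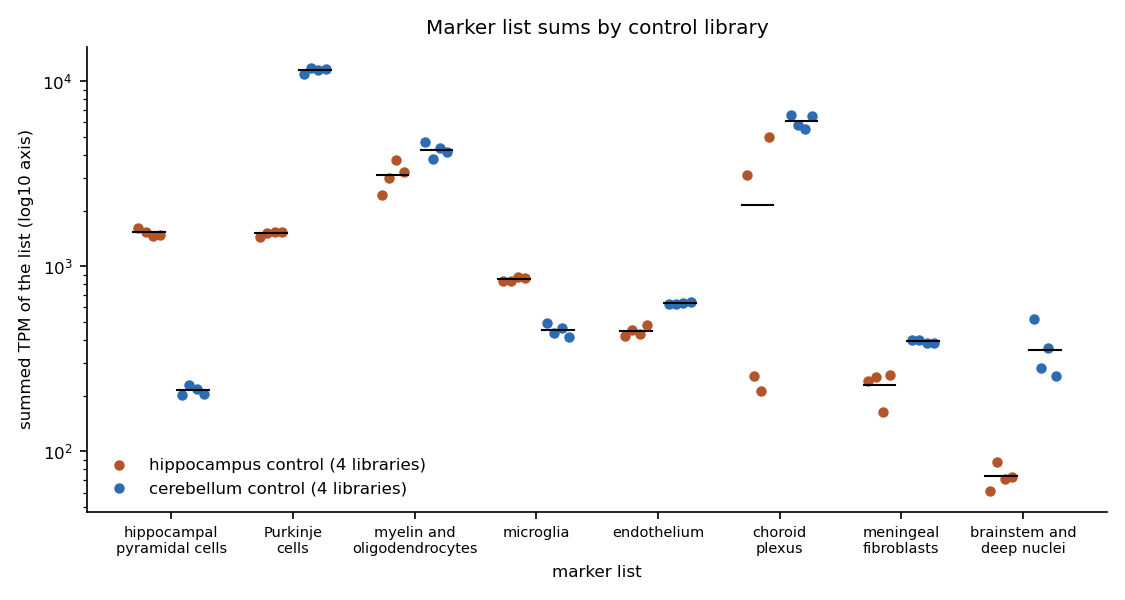
Summed TPM of 8 marker lists (x axis) on a log10 axis, 1 point per control library and a bar at the mean of 4. Choroid plexus transcripts ranged from 211 to 5011 TPM across the hippocampus libraries, while the pyramidal and Purkinje cell lists separated the regions with little spread.

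The genes furthest toward hippocampus encode proteins of the forebrain synapse and dendrite. Dendrin, Ddn, a dendritic protein, had 1641, 1582, 1687 and 1650.0 TPM in hippocampus replicates 14 to 17 and 0.769, 0.237, 0.574 and 0.464 TPM in cerebellum. Every hippocampus library lay far above every cerebellum library, a log2 difference of 10.10 ± 0.089 (SE; adjusted p = 2.16e-14 in limma). Neurogranin, Nrgn, which binds calmodulin in dendritic spines, measured 1648 ± 101 TPM in hippocampus and 5.78 ± 0.845 TPM in cerebellum, a log2 difference of 7.93 ± 0.081. Next came Icam5, the adhesion molecule telencephalin (7.59 ± 0.067), Crym, which binds thyroid hormone (7.53 ± 0.082), the copine Cpne7 (7.40 ± 0.11), the pseudokinase Camkv (6.93 ± 0.055), guanine deaminase, Gda (6.55 ± 0.061), and Rgs14, a regulator of G protein signalling known from CA2 (6.50 ± 0.067). The muscarinic receptor Chrm1 (6.40 ± 0.076), Fibcd1, an acetyl-binding receptor of CA1 (6.31 ± 0.075), and Enc1, an actin-binding protein (6.10 ± 0.071), were also among the 12 largest. Several are not specific to hippocampus among forebrain tissues: in the neocortex controls Ddn stood at 822 ± 18.2 TPM and Nrgn at 2124 ± 64.5 TPM, whereas Fibcd1 stood at 7.46 ± 0.22 TPM against 109 ± 11.6 TPM in hippocampus.

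Toward cerebellum the largest differences belonged to granule and Purkinje cell genes. Cerebellin 3, Cbln3, a secreted partner of cerebellin 1 made by granule cells, had 1135, 1173, 1109 and 1200.5 TPM in cerebellum replicates 14 to 17 and 0.188, 0.362, 0.326 and 0.344 TPM in hippocampus. Every cerebellum library lay far above every hippocampus library, with a log2 difference of -9.79 ± 0.052 (adjusted p = 1.06e-15, limma). The GABA-A receptor subunit alpha 6, Gabra6, had 761, 955, 876 and 986 TPM in cerebellum and 0, 0, 0 and 0.0284 TPM in hippocampus, where 3 libraries list it at 0. Purkinje cell protein 2, Pcp2, measured 440.4 ± 22.8 TPM in cerebellum and 0.0675 ± 0.0477 TPM in hippocampus (-8.69 ± 0.055). The protein phosphatase inhibitor Ppp1r17 (-8.45 ± 0.081), Car8, which lacks carbonic anhydrase activity and binds the IP3 receptor (-8.29 ± 0.07), Cnpy1 (-8.06 ± 0.058), the giant cadherin Fat2 (-7.74 ± 0.066), Cbln1, which bridges granule cell axons to Purkinje spines (-6.62 ± 0.28), Crtam (-6.39 ± 0.078), the homeobox gene En2 (-6.21 ± 0.11) and Arhgef33 (-6.10 ± 0.071) followed. Lhx1os, a long noncoding RNA gene that lies beside Lhx1 on the other strand without overlapping it in GENCODE M21, also ranked among them (-6.69 ± 0.085). In absolute terms the widest gaps toward cerebellum, beside Car8 and Cbln3, were of transthyretin, Ttr, of the choroid plexus (1649.5 ± 1928 TPM in hippocampus and 4741 ± 421 TPM in cerebellum), the brain creatine kinase Ckb (1235 ± 52 TPM in hippocampus and 3183 ± 99.8 TPM in cerebellum), the calmodulin-binding peptide Pcp4 (331 ± 25 TPM in hippocampus and 1826 ± 17.9 TPM in cerebellum) and parvalbumin, Pvalb (71.7 ± 4.19 TPM in hippocampus and 1457 ± 21.7 TPM in cerebellum). Toward hippocampus they were of 6 mitochondrially encoded genes, led by mt-Co3 (32895 ± 1155 TPM in hippocampus and 25847 ± 1017 TPM in cerebellum). Its log2 difference of 0.35 ± 0.048 became 0.58 with median-ratio scaling, still called. With quantile normalization it became 0.0073 and was not called. That method gives equal ranks the same value in every library, so it cannot show a difference in genes that hold the top ranks throughout.

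**Figure D2:**
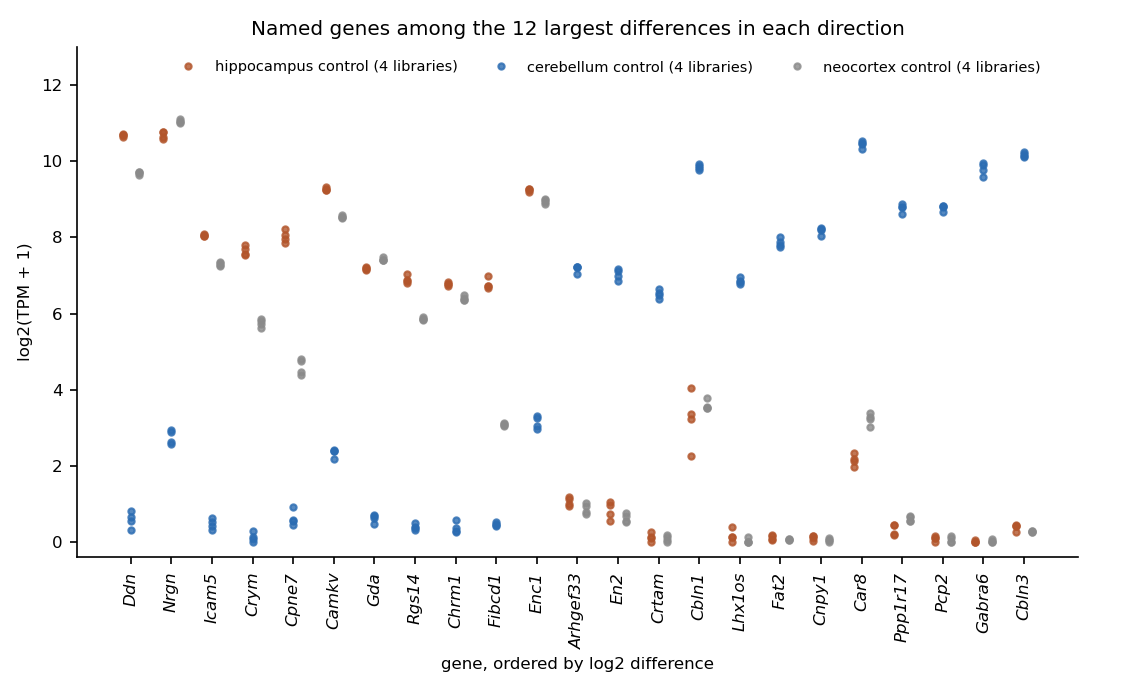
log2(TPM + 1) of genes named among the 12 with the largest differences in each direction, 1 point per control library of hippocampus, cerebellum and neocortex (4 each). Every hippocampus point lies apart from every cerebellum point, and most hippocampus genes shown are also high in neocortex, whereas the cerebellum genes are not.

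In genome annotation (GENCODE M21 on mm10), Fibcd1 lies on chromosome 2, 31813290 to 31846005, Gabra6 on chromosome 11, 42306437 to 42321072 and Arhgef33 on chromosome 17, 80307407 to 80400081, all protein coding. They are shown with the 250 bases before an annotated start (RefSeq, GRCm38.p6), because Fibcd1 was among the 12 genes furthest toward hippocampus and Gabra6 and Arhgef33 were among the 12 furthest toward cerebellum. The windows are chr2:31846006-31846255 for Fibcd1, chr11:42321073-42321322 for Gabra6 and chr17:80307157-80307406 for Arhgef33, on the minus strand for Fibcd1 and Gabra6 and on the plus strand for Arhgef33. None of the 3 overlaps an annotated gene. Both strands were searched for CAGATG, an E-box letter pattern of neurogenic bHLH factors, and AGGTCA, the half-site letters of nuclear receptors such as RORA, and matches on either strand are in capitals. Each window runs 5′ to 3′ on the strand of its gene.
Fibcd1: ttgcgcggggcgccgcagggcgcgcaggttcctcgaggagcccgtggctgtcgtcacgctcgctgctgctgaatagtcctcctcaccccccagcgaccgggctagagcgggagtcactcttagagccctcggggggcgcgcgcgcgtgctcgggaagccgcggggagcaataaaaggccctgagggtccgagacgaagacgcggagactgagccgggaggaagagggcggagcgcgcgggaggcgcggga
Gabra6: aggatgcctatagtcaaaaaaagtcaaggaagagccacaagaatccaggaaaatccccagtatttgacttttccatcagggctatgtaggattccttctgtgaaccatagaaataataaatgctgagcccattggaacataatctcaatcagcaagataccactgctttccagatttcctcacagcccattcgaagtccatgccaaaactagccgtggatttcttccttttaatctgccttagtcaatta
Arhgef33: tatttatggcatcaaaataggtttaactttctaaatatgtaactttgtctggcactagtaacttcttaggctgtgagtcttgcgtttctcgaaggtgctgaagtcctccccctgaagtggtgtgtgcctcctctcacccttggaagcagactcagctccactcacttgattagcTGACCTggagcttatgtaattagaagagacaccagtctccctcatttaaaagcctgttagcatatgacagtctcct
The Arhgef33 window held AGGTCA once, on the other strand and 76 bases before the start, and the Fibcd1 and Gabra6 windows held neither pattern. Such matches are common. CAGATG occurred in 14.4% and AGGTCA in 14% of all 32851 windows of this length. Among windows of genes with a log2 difference of at least 1 toward hippocampus the shares were 13% and 9.42%, and toward cerebellum 12.1% and 12.4%, against 10.5% and 10.8% over all tested genes. A match is a description of the letters only, and no test was made of these shares.

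Transcription factors listed for the forebrain and for the hindbrain and cerebellum went mostly in opposite directions in the adult tissue. The forebrain list is not only of genes that pattern the brain in development. Egr3, Egr4, Npas4 and Nr4a3 in it are induced by activity and are counted again among the immediate early genes below. Of 28 tested forebrain factors, 22 were higher in hippocampus and 4 in cerebellum, with a median log2 difference of 1.66. The activity-regulated Egr3 (52.9 ± 3.19 TPM in hippocampus and 0.339 ± 0.138 TPM in cerebellum), the LIM homeobox gene Lhx2 (38 ± 2.09 TPM in hippocampus and 0.171 ± 0.095 TPM in cerebellum) and the zinc finger gene Bcl11b (49.6 ± 1.77 TPM in hippocampus and 0.572 ± 0.0812 TPM in cerebellum) had groups far apart, as had Fezf2, a cortical layer factor from another list (40.5 ± 5.84 TPM in hippocampus and 0.00863 ± 0.0173 TPM in cerebellum). The forebrain patterning genes Emx1 and Emx2 were lower in level but as clear. They measured 12 ± 1.69 and 14.1 ± 0.94 TPM in hippocampus and 0.119 ± 0.0157 and 0.02 ± 0.0133 TPM in cerebellum. The 4 forebrain list members toward cerebellum were Klf7, Nfix, Klf9 and Zbtb18, all by less than 1 log2 unit, and Neurod2, a bHLH factor shared by granule and pyramidal neurons, was not called (141 ± 5.52 TPM in hippocampus and 139 ± 12.8 TPM in cerebellum).

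Of 35 tested hindbrain and cerebellar factors, 32 were higher in cerebellum, with a median log2 difference of -3.02. The engrailed gene En2, which marks the midbrain-hindbrain territory, had 115, 142, 127 and 138 TPM in cerebellum and 0.464, 0.664, 1.06 and 0.959 TPM in hippocampus. Zic1, a zinc finger gene of granule cells, had 510.3, 626, 569 and 601 TPM in cerebellum and 5.05, 7.61, 27.8 and 6.94 TPM in hippocampus, where replicate 16 stood above the other 3. The granule cell gene Barhl2 (-5.68), the Purkinje cell gene Lhx1 (-5.56), Uncx of deep nuclei (-5.02) and Tfap2b of inhibitory neurons (-4.90) followed in log2 difference. The 3 members toward hippocampus were Lhx9 (8.17 ± 1.08 TPM in hippocampus and 0.605 ± 0.166 TPM in cerebellum), Meis2 (13.1 ± 2.2 TPM in hippocampus and 3.4 ± 2.37 TPM in cerebellum) and Sall3 (2.43 ± 0.49 TPM in hippocampus and 0.418 ± 0.181 TPM in cerebellum), so a family is not of 1 region: Meis1 went toward cerebellum (0.567 ± 0.0847 TPM in hippocampus and 19.9 ± 1.52 TPM in cerebellum) while its paralog Meis2 went toward hippocampus.

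Markers of hippocampal neurons separated as their names say, with exceptions. Of 14 dentate granule cell genes 11 were higher in hippocampus and 1, Maml2, in cerebellum (median log2 difference 1.74). The synaptic organiser C1ql2 (81.7 ± 8.66 TPM in hippocampus and 0.697 ± 0.18 TPM in cerebellum), lactase, Lct (19.2 ± 3.34 TPM in hippocampus and 0.186 ± 0.122 TPM in cerebellum), and desmoplakin, Dsp (16 ± 4.56 TPM in hippocampus and 0.741 ± 0.182 TPM in cerebellum), led the list. Prox1, the usual marker of dentate granule cells, was not called (38.4 ± 6.85 TPM in hippocampus and 31.6 ± 3.91 TPM in cerebellum), nor was Tdo2 (5.14 ± 0.877 TPM in hippocampus and 4.32 ± 0.733 TPM in cerebellum). Both were called toward hippocampus under median-ratio scaling, at log2 differences of 0.49 and 0.40. Of 21 pyramidal cell genes 19 were higher in hippocampus (median 2.49), led by Crym, Rgs14, Fibcd1 and Spink8, a CA1 gene with 83.9, 62.6, 67.9 and 68.2 TPM in hippocampus and 0.0947, 0.0982, 0.0968 and 0 TPM in cerebellum. The 2 exceptions were Coch (-0.78) and Cacng5, an AMPA receptor auxiliary subunit associated with CA2, which measured 11.2 ± 5.07 TPM in hippocampus and 48.7 ± 3.56 TPM in cerebellum. Among markers of interneurons that migrate from the ventral forebrain, 16 of 21 were higher in hippocampus. Dlx2 and Dlx5, homeobox genes of that origin, are listed at 0 in all 4 cerebellum libraries and had 4.79 ± 0.977 and 6.81 ± 1.5 TPM in hippocampus. Of genes that GABA neurons in general use, Gad1 and Slc32a1 went the other way. Gad1, which makes GABA (152 ± 10.5 TPM in hippocampus and 255 ± 15.8 TPM in cerebellum), and Slc32a1, which loads it into vesicles (65.8 ± 4.86 TPM in hippocampus and 146 ± 2.84 TPM in cerebellum), were higher in cerebellum, as was the factor Maf (-1.35). Gad2 was not called (101 ± 12.3 TPM in hippocampus and 108 ± 2.31 TPM in cerebellum).

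Markers of cerebellar neurons lay far toward cerebellum. All but 1 of 22 granule cell genes were higher in cerebellum (median log2 difference -3.62), with 21 past 1 log2 unit. The exception was Slc17a7, the vesicular glutamate transporter VGLUT1 that granule cells share with forebrain pyramidal cells (1204 ± 49.9 TPM in hippocampus and 437 ± 20.5 TPM in cerebellum). Of 27 Purkinje cell genes 26 were higher in cerebellum by at least 1 log2 unit (median -3.59), led by Pcp2, Ppp1r17, Car8 and Arhgef33. Among markers of cerebellar interneurons 12 of 16 were higher in cerebellum (11 with median-ratio scaling). The glycine transporter Slc6a5 of Golgi cells and deep nuclei had 47.8, 25.5, 33.2 and 25.6 TPM in cerebellum, highest in replicate 14, as the brainstem sum to which it belongs, and 0.019, 0.00988, 0.122 and 0.0687 TPM in hippocampus. Eomes, a marker of unipolar brush cells in cerebellum and of dividing progenitors in the dentate gyrus, had 7.97, 27.4, 17.2 and 13.5 TPM in cerebellum and at most 1.16 TPM in hippocampus. Of the dentate neurogenic markers, doublecortin, Dcx (8.1 ± 0.835 TPM in hippocampus and 2.28 ± 0.207 TPM in cerebellum), was higher in hippocampus. Calretinin, Calb2, a marker of mossy cells and immature dentate neurons, measured 73 ± 17.6 TPM in hippocampus and 856 ± 60.9 TPM in cerebellum.

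**Figure D3:**
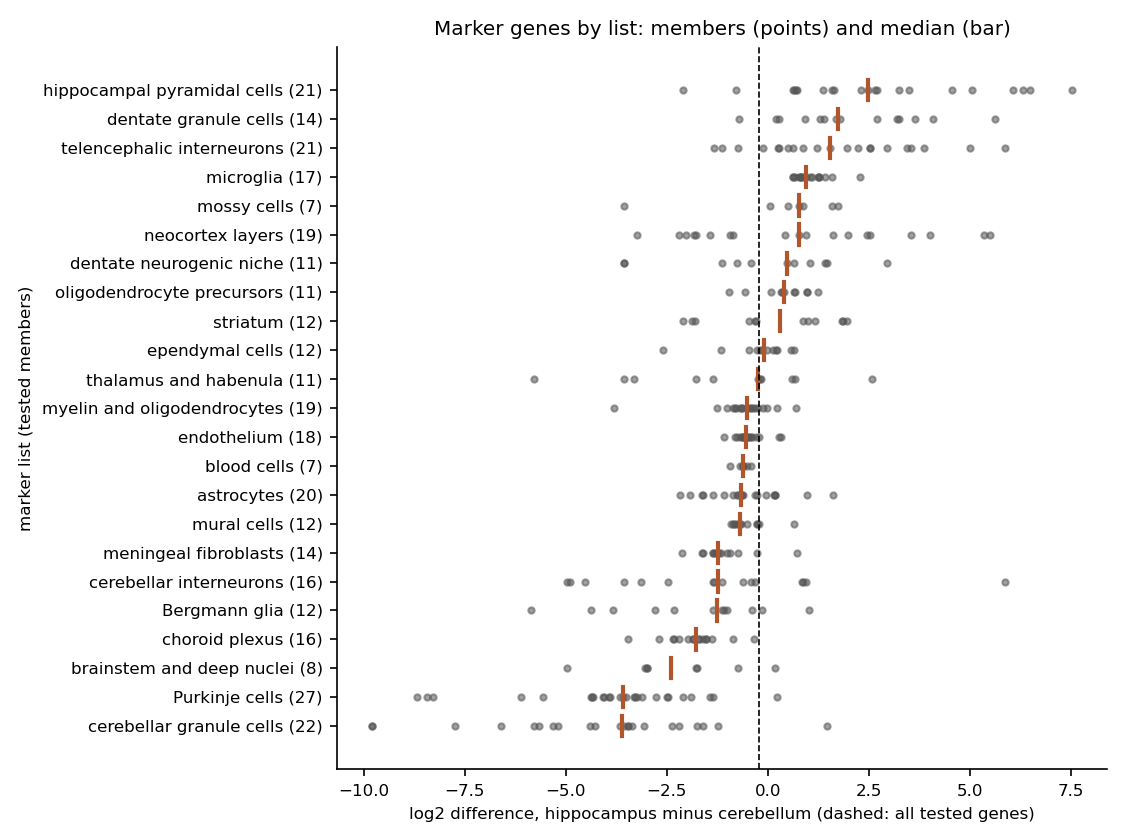
Log2 differences, hippocampus minus cerebellum, of the tested members of 23 marker lists (points) with each list's median (bar). The dashed line is the median of all 15326 tested genes at -0.23; granule and Purkinje cell lists lie mostly below it and pyramidal, dentate and microglial lists mostly above.

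Glial and vascular genes differed in both directions. In such whole-tissue RNA, fewer cells of a type and less RNA per cell cannot be told apart. All 17 microglia genes were higher in hippocampus (median log2 difference 0.94), and they were under median-ratio scaling as well. The fractalkine receptor Cx3cr1 had 39.8, 37, 37.5 and 37.7 TPM in hippocampus and 17.1, 15.3, 14 and 14.3 TPM in cerebellum, without overlap. The ADP receptor P2ry12 (49.3 ± 5.17 TPM in hippocampus and 15.7 ± 1.3 TPM in cerebellum) and Fcrls (28.3 ± 0.868 TPM in hippocampus and 5.01 ± 0.244 TPM in cerebellum) were among them, and the differences ranged from 0.61 to 2.29 log2 units across the list. Among 20 astrocyte genes 14 were higher in cerebellum and 5 in hippocampus (12 and 6 with median-ratio scaling). Over all tested genes the shares were 55% and 27.2%. The list median was -0.66, against -0.23 over all tested genes. The water channel Aqp4 (90.7 ± 9.29 TPM in hippocampus and 278 ± 20.7 TPM in cerebellum) and the glutamate transporter GLAST, Slc1a3 (234 ± 16.6 TPM in hippocampus and 494 ± 33.6 TPM in cerebellum), were higher in cerebellum. The other main glutamate transporter, GLT-1 or Slc1a2 (702 ± 46.9 TPM in hippocampus and 231 ± 6.96 TPM in cerebellum), and the filament gene Gfap (256 ± 19.1 TPM in hippocampus and 131 ± 11.6 TPM in cerebellum) were higher in hippocampus. Bergmann glia genes were higher in cerebellum in 10 of 12 (9 with median-ratio scaling), led by D-amino acid oxidase, Dao (0.0966 ± 0.0451 TPM in hippocampus and 63 ± 3.06 TPM in cerebellum), A2m (2.29 ± 0.665 TPM in hippocampus and 66.1 ± 3.73 TPM in cerebellum) and the growth factor Gdf10 (11.4 ± 1.29 TPM in hippocampus and 175 ± 18.6 TPM in cerebellum).

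Myelin genes were higher in cerebellum in 13 of 19 (10 with median-ratio scaling), with a median log2 difference of -0.51 against -0.23 over all genes. The share of all tested genes toward cerebellum was 55%. In the LLC libraries described below 5 of the 19 were called toward cerebellum. The summed list ranged from 2425 to 3770 TPM in hippocampus, lowest in replicate 14, and from 3798 to 4710.0 TPM in cerebellum. The kallikrein Klk6 (1.89 ± 1 TPM in hippocampus and 38.2 ± 5.23 TPM in cerebellum) stood out among them, and Opalin (33.3 ± 3.31 TPM in hippocampus and 20.7 ± 6.26 TPM in cerebellum) was the member furthest toward hippocampus. Of 11 genes of oligodendrocyte precursors 7 were higher in hippocampus, among them the receptor Pdgfra (19 ± 1.11 TPM in hippocampus and 9.3 ± 0.228 TPM in cerebellum). Endothelial genes (16 of 18) and mural cell genes (11 of 12) were mostly higher in cerebellum, but by medians of -0.54 and -0.68, and 13 and 8 with median-ratio scaling. The tight junction gene Ocln was the only one of these lists past 1 log2 unit (-1.09). Choroid plexus genes were higher in cerebellum in 15 of 16 (11 with median-ratio scaling, 16 without hippocampus replicates 14 and 17, but 7 without replicate 15 and 8 without replicate 16). Transthyretin itself ranged from 38.4 to 3968 TPM over the hippocampus libraries and from 4268 to 5144 TPM over cerebellum, so the groups did not overlap although hippocampus varied widely. Meningeal fibroblast genes were higher in cerebellum in 13 of 14 (12 with median-ratio scaling). Decorin, Dcn (91.9 ± 14 TPM in hippocampus and 54.5 ± 1.01 TPM in cerebellum), was higher in hippocampus. Adult haemoglobin genes were lower in hippocampus, for example Hbb-bs (372 ± 87.6 TPM in hippocampus and 566 ± 69.8 TPM in cerebellum); the near-identical copies of these genes share reads.

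Neurotransmitter receptors differed in direction from subunit to subunit. Of 19 tested GABA and glycine receptor genes 8 were higher in hippocampus and 7 in cerebellum (11 and 6 with median-ratio scaling). The alpha 5 subunit, Gabra5, known from extrasynaptic receptors of pyramidal cells, had 263, 221, 236 and 205 TPM in hippocampus and 6.4, 2.11, 2.81 and 1.31 TPM in cerebellum, a log2 difference of 5.94 ± 0.28 (adjusted p = 5.82e-09, limma). Its neocortex level of 57.2 ± 3.44 TPM lay between both. Alpha 2, 3 and 4, Gabra2, Gabra3 and Gabra4, were higher in hippocampus by 1.84, 1.87 and 1.55 log2 units. The delta subunit Gabrd, which pairs with alpha 6 in granule cells and alpha 4 in dentate granule cells, measured 23.7 ± 2.62 TPM in hippocampus and 206 ± 20.2 TPM in cerebellum. Of the beta subunits, Gabrb2 was higher in cerebellum (-1.55) and Gabrb1 in hippocampus (1.46). The metabotropic GABA-B subunits Gabbr1 and Gabbr2 were not called (-0.09 and -0.05). The glycine receptor subunit Glra1 had 24.9, 3.71, 10.9 and 3.01 TPM in cerebellum, in the same order as the brainstem sums, to which it belongs, and at most 0.18 TPM in hippocampus.

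Among ionotropic glutamate receptors, 10 of 18 subunits were higher in hippocampus and 8 in cerebellum (10 and 7 with median-ratio scaling). The NMDA receptor subunit Grin2b had 110.2, 101, 123 and 103 TPM in hippocampus and 4.99, 5.19, 5.68 and 4.94 TPM in cerebellum, and Grin2c the reverse, with 31.5, 34, 33.7 and 34.2 and 332, 299, 305 and 334 TPM. Neither pair of groups overlapped, at log2 differences of 4.15 ± 0.069 and -3.21 ± 0.047. The obligatory subunit Grin1 measured 156 ± 1.63 TPM in hippocampus and 128 ± 7.02 TPM in cerebellum. Of AMPA receptor subunits, Gria1 (584 ± 48.3 TPM in hippocampus and 290.2 ± 21.2 TPM in cerebellum) and Gria2 (206 ± 21.3 TPM in hippocampus and 124 ± 6.61 TPM in cerebellum) were higher in hippocampus and Gria4 (42 ± 3.62 TPM in hippocampus and 297 ± 18.1 TPM in cerebellum), which Bergmann glia also express, in cerebellum. The delta receptor Grid1, which binds cerebellins, measured 38.4 ± 0.409 TPM in hippocampus and 14 ± 0.65 TPM in cerebellum. Kainate receptor genes split between Grik4 and Grik5, higher in hippocampus (1.62 and 1.36), and Grik1, higher in cerebellum (-1.12). The metabotropic receptor Grm5 measured 86 ± 6.24 TPM in hippocampus and 3.98 ± 0.839 TPM in cerebellum. Grm4, the presynaptic receptor of parallel fibres, had 236, 248, 257 and 271 TPM in cerebellum and 3.69, 7.08, 5.29 and 5.85 TPM in hippocampus.

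**Figure D4:**
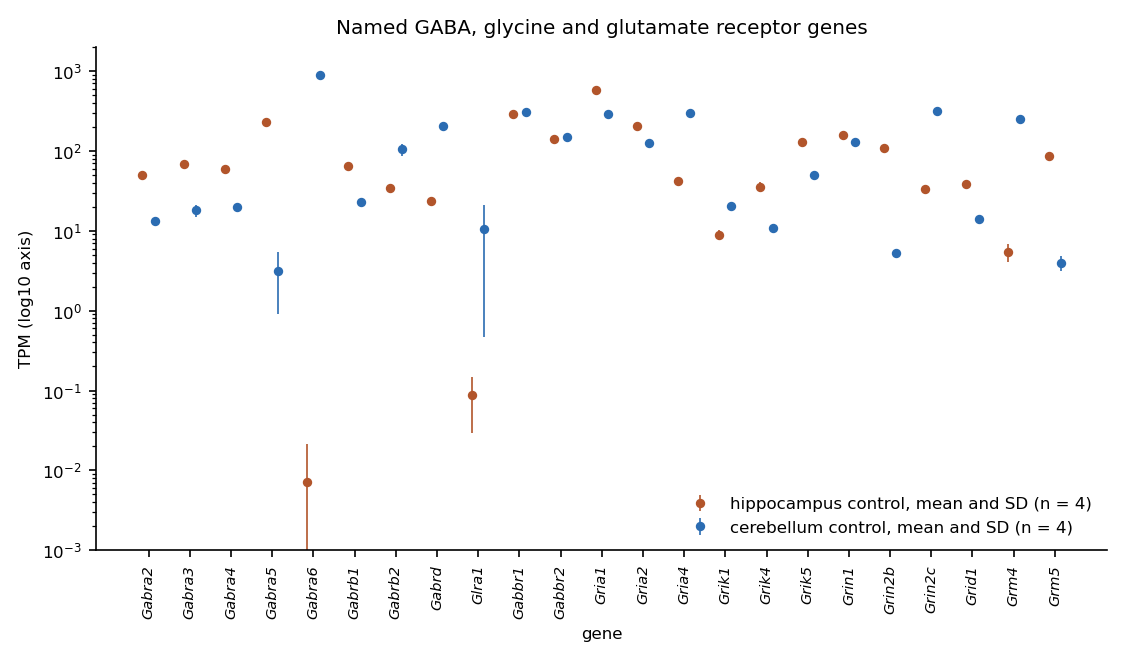
Mean TPM with SD (n = 4) on a log10 axis of the named GABA-A, ionotropic and metabotropic glutamate receptor genes in control hippocampus and cerebellum. Gabra6 and Gabra5, Grin2c and Grin2b, and Grm4 and Grm5 lie on opposite sides, while Grin1 nearly coincides. The lower bar of Gabra6 in hippocampus runs off the axis, since its SD exceeds its mean.

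Voltage-gated channels divided in the same manner. Of 35 potassium channel genes 18 were higher in hippocampus and 16 in cerebellum (18 and 13 with median-ratio scaling). The Kv4 partner Kcnip2 (169 ± 7.52 TPM in hippocampus and 1.8 ± 0.464 TPM in cerebellum), the silent subunit Kcnv1 (38 ± 2.39 TPM in hippocampus and 0.0835 ± 0.0612 TPM in cerebellum), the EAG-type Kcnh3 (72.7 ± 8.39 TPM in hippocampus and 1.07 ± 0.0448 TPM in cerebellum) and the M-current subunit Kcnq5 (43.8 ± 4.86 TPM in hippocampus and 1.37 ± 0.318 TPM in cerebellum) led toward hippocampus. Toward cerebellum the silent subunit Kcng4 (4.22 ± 0.609 TPM in hippocampus and 135 ± 6.4 TPM in cerebellum) came first, and the fast Kv3 channel Kcnc1 (71.7 ± 3.85 TPM in hippocampus and 346 ± 28.9 TPM in cerebellum) was higher there too. Another Kv3 gene, Kcnc2, went toward hippocampus (60.3 ± 2.12 TPM in hippocampus and 6.42 ± 2.88 TPM in cerebellum). Among sodium channel genes the auxiliary subunits beta 3, Scn3b (175 ± 11.8 TPM in hippocampus and 3.44 ± 0.81 TPM in cerebellum), and beta 4, Scn4b (16 ± 1.7 TPM in hippocampus and 117 ± 24.5 TPM in cerebellum), were opposed; beta 4 supports the resurgent current of Purkinje cells. The main subunit Scn8a was not called (93 ± 2.59 TPM in hippocampus and 91.6 ± 2.73 TPM in cerebellum), and Scn1a was higher in cerebellum (-1.31). Of the intracellular FGFs that bind sodium channels, Fgf13 (3.38) was higher in hippocampus and Fgf14 (-1.12) in cerebellum. Calcium channels followed: the P/Q-type pore Cacna1a (48.9 ± 1.49 TPM in hippocampus and 181 ± 13.6 TPM in cerebellum) and its partner Cacna2d2 (17.4 ± 4.27 TPM in hippocampus and 133 ± 3.79 TPM in cerebellum) were higher in cerebellum. T-type pores were split between Cacna1g, higher in cerebellum (30.2 ± 1.5 TPM in hippocampus and 117 ± 8.23 TPM in cerebellum), and Cacna1h, higher in hippocampus (53.6 ± 1.85 TPM in hippocampus and 1.67 ± 0.197 TPM in cerebellum). The AMPA receptor partners gamma 8, Cacng8 (108 ± 6.02 TPM in hippocampus and 8.63 ± 0.721 TPM in cerebellum), and gamma 2 or stargazin, Cacng2 (38.5 ± 1.93 TPM in hippocampus and 108 ± 2.39 TPM in cerebellum), took opposite sides.

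Calcium handling showed some of the most abundant contrasts. The calcium buffers parvalbumin, calretinin and calbindin, Pvalb, Calb2 and Calb1 (71.4 ± 9.49 TPM in hippocampus and 681 ± 48.9 TPM in cerebellum), were all higher in cerebellum, and Pvalb had 1462, 1474, 1467 and 1425 TPM there against 70.7, 74.9, 66.2 and 75.1 TPM in hippocampus. The calcium sensor hippocalcin, Hpca, had 1706, 1400.5, 1473 and 1419 TPM in hippocampus and 59.9, 58.3, 57.1 and 54.9 TPM in cerebellum, while its relative Hpcal1 was opposite (66.5 ± 6.78 TPM in hippocampus and 530.5 ± 34.8 TPM in cerebellum). CaM kinase II alpha, Camk2a, the kinase of forebrain plasticity, had 1537, 1393, 1518 and 1524 TPM in hippocampus and 35.2, 39.5, 39.9 and 39.6 TPM in cerebellum, with a log2 difference of 5.24 ± 0.049. The beta gene Camk2b differed by only 0.61 log2 units, the delta gene Camk2d (11.3 ± 2.99 TPM in hippocampus and 44.1 ± 1.61 TPM in cerebellum) and Camk4 (46.4 ± 0.659 TPM in hippocampus and 262 ± 17.1 TPM in cerebellum) were higher in cerebellum, and Camk2g was not called (-0.05). In second messenger signalling 20 of 43 genes were higher in hippocampus and 19 in cerebellum (24 and 17 with median-ratio scaling). Genes that lead to release from calcium stores in Purkinje cells were higher in cerebellum: phospholipase C beta 4, Plcb4 (8.94 ± 1.69 TPM in hippocampus and 149.8 ± 9.03 TPM in cerebellum), the scaffold Homer3 (46.9 ± 3.57 TPM in hippocampus and 270.3 ± 11.6 TPM in cerebellum) and the IP3 receptor Itpr1 (101 ± 8.76 TPM in hippocampus and 887 ± 55.6 TPM in cerebellum). The cGMP-degrading Pde5a was higher in cerebellum too (-3.05). Phosphodiesterases Pde1a (132 ± 11.3 TPM in hippocampus and 3.05 ± 0.389 TPM in cerebellum) and Pde2a (319.5 ± 10.2 TPM in hippocampus and 35 ± 1.39 TPM in cerebellum), protein kinase C alpha, Prkca (143 ± 13.1 TPM in hippocampus and 36.3 ± 3.6 TPM in cerebellum), and phospholipase C beta 1, Plcb1 (66.1 ± 3.34 TPM in hippocampus and 27.2 ± 1.19 TPM in cerebellum), were higher in hippocampus. Prkacb, a catalytic subunit of protein kinase A, was not called (189 ± 13.9 TPM in hippocampus and 188 ± 6.01 TPM in cerebellum).

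At the presynapse, 21 of 44 genes were higher in hippocampus and 20 in cerebellum (23 and 17 with median-ratio scaling). The calcium sensor of fast release, Syt1 (595 ± 23.9 TPM in hippocampus and 217 ± 9.77 TPM in cerebellum), was higher in hippocampus, and Syt2 (11 ± 2.38 TPM in hippocampus and 259 ± 3.68 TPM in cerebellum) and Syt9 (5.29 ± 0.505 TPM in hippocampus and 61.2 ± 5.13 TPM in cerebellum), which also trigger fast release, in cerebellum. The priming factor Unc13c, known from granule cells, measured 9.54 ± 3.32 TPM in hippocampus and 96.5 ± 3.22 TPM in cerebellum. The SNARE syntaxin 1A, Stx1a, had 96.4, 112, 86.1 and 126 TPM in hippocampus and 3, 2.93, 2.53 and 2.76 TPM in cerebellum. The zinc transporter Slc30a3, which fills the zinc-rich vesicles of mossy fibres, measured 66.1 ± 9.13 TPM in hippocampus and 2.29 ± 1.02 TPM in cerebellum. Of 33 cerebellins, C1q-like proteins and other synapse organisers 17 were higher in hippocampus and 12 in cerebellum (20 and 10 with median-ratio scaling). Cbln1 had 912, 944, 866 and 965 TPM in cerebellum and 3.81, 15.6, 8.42 and 9.33 TPM in hippocampus, but Cbln2 (8.57 ± 2.32 TPM in hippocampus and 1.72 ± 0.754 TPM in cerebellum) and Cbln4 (16 ± 5.48 TPM in hippocampus and 3.86 ± 3.48 TPM in cerebellum) were higher in hippocampus, as were C1ql3 (102 ± 13.2 TPM in hippocampus and 19.4 ± 1.72 TPM in cerebellum), neuronal pentraxin 2, Nptx2 (24.2 ± 3.02 TPM in hippocampus and 1.11 ± 0.118 TPM in cerebellum), and Lrrtm1 (87.7 ± 3.23 TPM in hippocampus and 6.55 ± 0.499 TPM in cerebellum). In the matrix around neurons, neurocan, Ncan (75.9 ± 1.6 TPM in hippocampus and 8.87 ± 0.862 TPM in cerebellum), and the link protein Hapln1 (18.3 ± 2.04 TPM in hippocampus and 4.43 ± 0.707 TPM in cerebellum) were higher in hippocampus and reelin, Reln (11.1 ± 1.29 TPM in hippocampus and 68.4 ± 3.26 TPM in cerebellum), in cerebellum.

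Neuropeptides and the receptors for modulators were mainly hippocampal. Of 26 peptide and growth factor genes 20 were higher in hippocampus and 4 in cerebellum (median log2 difference 1.61). Somatostatin, Sst, an interneuron peptide, had 923, 924, 785 and 836 TPM in hippocampus and 30.5, 13.7, 12.3 and 7.03 TPM in cerebellum. Vip (35.4 ± 4.67 TPM in hippocampus and 0.143 ± 0.113 TPM in cerebellum), Grp (46.3 ± 4.24 TPM in hippocampus and 0.752 ± 0.273 TPM in cerebellum), cortistatin, Cort (26.6 ± 2.71 TPM in hippocampus and 0.0574 ± 0.115 TPM in cerebellum), and cholecystokinin, Cck (850.2 ± 54.4 TPM in hippocampus and 95.6 ± 11.4 TPM in cerebellum), followed, and Bdnf, the neurotrophin of mossy fibres, was higher by 1.44 log2 units. The 4 toward cerebellum were Gdf10, enkephalin, Penk (44.4 ± 3.4 TPM in hippocampus and 157 ± 9.52 TPM in cerebellum), Igf2 (32.2 ± 16.7 TPM in hippocampus and 91.9 ± 3.21 TPM in cerebellum) and Adcyap1 (-0.50). Igf2, made by meninges and choroid plexus, had 34.7, 26.8, 13.5 and 53.6 TPM in hippocampus, highest in replicate 17, which also had the highest plexus sum.

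Of 37 receptors for monoamines, acetylcholine, opioids and cannabinoids, 25 were higher in hippocampus and 9 in cerebellum (26 and 7 with median-ratio scaling). The median log2 difference was 1.69. Chrm1 had 109, 104, 108 and 113 TPM in hippocampus and 0.503, 0.211, 0.294 and 0.204 TPM in cerebellum, and Chrm3 (40.9 ± 2.39 TPM in hippocampus and 1.29 ± 0.417 TPM in cerebellum) and the serotonin receptor Htr1a (23.5 ± 3.44 TPM in hippocampus and 0.424 ± 0.23 TPM in cerebellum) behaved alike. The cannabinoid receptor Cnr1 was higher in cerebellum (118 ± 10.9 TPM in hippocampus and 235 ± 12.4 TPM in cerebellum), as was Htr1b (6.54 ± 1.11 TPM in hippocampus and 15.8 ± 0.387 TPM in cerebellum). Of 21 neuropeptide receptors 19 were higher in hippocampus, led by Npy2r (64.9 ± 6.91 TPM in hippocampus and 0.536 ± 0.156 TPM in cerebellum), Sstr4 (log2 difference 4.31) and Npy1r (32.5 ± 3.14 TPM in hippocampus and 1.81 ± 0.362 TPM in cerebellum). The receptor for corticotropin-releasing hormone, Crhr1 (12.2 ± 2.02 TPM in hippocampus and 123 ± 21.3 TPM in cerebellum), and the VIP receptor Vipr2 (0.5 ± 0.0594 TPM in hippocampus and 11.8 ± 2.89 TPM in cerebellum) were the 2 higher in cerebellum, so for the VIP system the ligand and this receptor were highest in different regions.

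Of 25 nuclear receptor genes 12 were higher in hippocampus and 11 in cerebellum, against 27.2% and 55% of all tested genes. Their median log2 difference was -0.06, against -0.23 over all tested genes. The mineralocorticoid receptor Nr3c2 had 116, 86, 96.6 and 81.4 TPM in hippocampus and 22.2, 21, 20.2 and 20.1 TPM in cerebellum. The glucocorticoid receptor Nr3c1 was higher in cerebellum (38.5 ± 2 TPM in hippocampus and 61 ± 3.97 TPM in cerebellum), while its chaperone Fkbp5, itself induced by glucocorticoids, was higher in hippocampus (33.9 ± 4.98 TPM in hippocampus and 5.62 ± 0.929 TPM in cerebellum). The thyroid hormone receptors Thra (611 ± 19.9 TPM in hippocampus and 285 ± 8.6 TPM in cerebellum) and Thrb (20.6 ± 1.78 TPM in hippocampus and 6.28 ± 0.393 TPM in cerebellum) were higher in hippocampus. The retinoid-related orphan receptor Rora, required for Purkinje cell survival (10.4 ± 0.73 TPM in hippocampus and 114 ± 7.23 TPM in cerebellum), and the oestrogen-related Esrrg (9.55 ± 0.782 TPM in hippocampus and 59.9 ± 4.27 TPM in cerebellum) were higher in cerebellum.

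Immediate early genes, which neuronal activity induces within minutes, did not form a uniform group. Of 20 members 16 were higher in hippocampus (median log2 difference 1.17), led by Egr3, Nptx2, Junb (63.1 ± 9.44 TPM in hippocampus and 12.9 ± 1.56 TPM in cerebellum) and Fosl2 (23 ± 3.26 TPM in hippocampus and 5.34 ± 2.12 TPM in cerebellum). The 4 higher in cerebellum included Fos, with 21.5, 56.8, 28.9 and 13.8 TPM in cerebellum and 5.56, 13.7, 9.54 and 8.45 TPM in hippocampus. Replicate 15 was the highest of its region in both, and the lowest cerebellum value lay next to the highest hippocampus value. Ier2 (-1.57), Dusp1 (-1.25) and Btg2 (-0.49) were the others.

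The same regional contrast can be read in the 8 hippocampus and cerebellum libraries of LLC-injected mice, which share no library with the controls but differ from them in treatment. There 10109 of 15400 tested genes (65.6%) were called. Of the 3075 control genes with an absolute log2 difference of at least 1, 3054 were tested in the LLC libraries, 3052 of them differed in the same direction and 2997 of the 3075 (97.5%) were also called in it. The 2 that differed in the opposite direction were not called by limma, and 0 of them had an unadjusted p under 0.05. Of all 12591 called control genes 9618 (76.4%) were called in the same direction and 4 in the opposite one. Some lists gave fewer calls toward cerebellum than in controls: 5 of 19 myelin genes, 10 of 18 endothelial genes, 8 of 12 mural cell genes and 0 of 9 blood cell genes. Others held: 26 of 27 Purkinje cell genes were called toward cerebellum and 16 of 17 microglia genes toward hippocampus. The median log2 difference of the 3075, signed by the control direction, was 1.52 in controls and 1.49 in LLC libraries. Cerebellum LLC replicate 1 stood apart, with mean log2 deviations from its group of -0.62 over Purkinje cell genes and 0.96 over brainstem genes. Without it 3030 of the 3075 (98.5%) were called in the same direction. Blood cell genes summed to between 2734 and 15617 TPM in the LLC libraries of both regions, lowest in replicate 4 of each, and to between 732 and 1638 TPM in controls, and their part in the LLC values was not tested. The leading genes had similar sizes: Ddn differed by 10.18 ± 0.11, Gabra5 by 5.53 ± 0.69, Gabra6 by -9.23 ± 0.21 and Pcp2 by -8.41 ± 0.18 log2 units in LLC libraries.

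**Figure D5:**
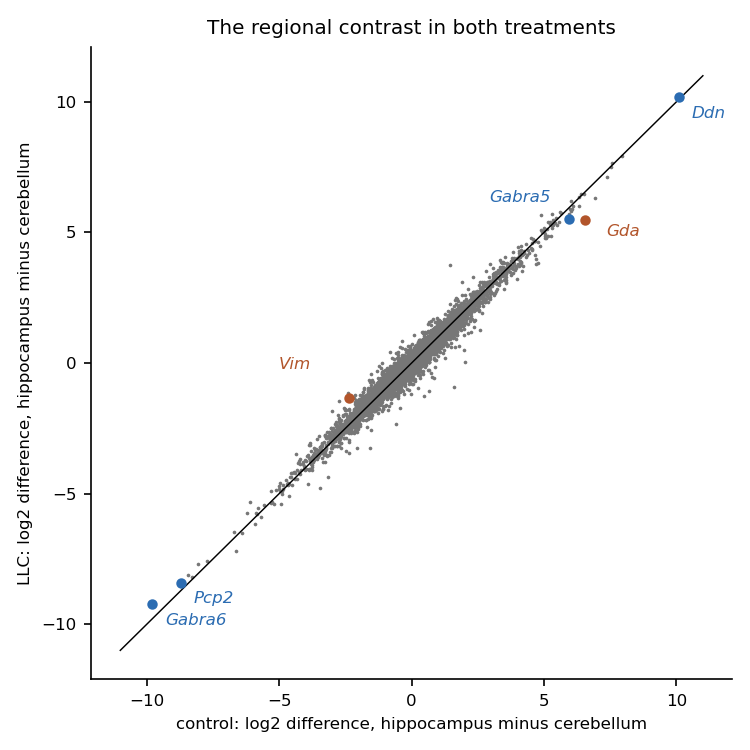
Log2 difference, hippocampus minus cerebellum, in control libraries (x axis) and LLC libraries (y axis), 1 point per gene tested in both, with Gda, Vim and 4 leading genes labelled. Points lie mostly along the diagonal. Gda and Vim, the 2 genes called in the test of the difference, are off it by about 1 log2 unit. They are not the furthest off: Ttr, not labelled, differs by -1.33 ± 2.13 (SE) and was not called.

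A test of the difference between both contrasts over 15608 genes called 2 (0.0128%). Gda, the guanine deaminase, had 0.621, 0.394, 0.557 and 0.606 TPM in the control cerebellum libraries and 2.04, 2.05, 1.66 and 1.62 TPM in the 4 LLC cerebellum libraries. In hippocampus it had 142, 145, 149 and 139.8 TPM in controls and 116, 137, 136 and 121 TPM in LLC libraries. Its regional log2 difference was 6.55 ± 0.061 in controls and 5.50 ± 0.093 in LLC libraries, an LLC minus control difference of -1.06 ± 0.11 (adjusted p = 5.60e-04, limma). Vimentin, Vim, a filament of astrocytes, vessels and meninges, had 37.7, 44.2, 45.5 and 47.6 TPM in control and 81, 82.5, 80.0 and 64.7 TPM in LLC hippocampus, and 197, 239.7, 227 and 243 and 179, 211, 188 and 204 TPM in cerebellum. Its regional log2 difference was -2.35 ± 0.08 in controls and -1.33 ± 0.09 in LLC libraries, an LLC minus control difference of 1.01 ± 0.13 (adjusted p = 0.00541, limma). In both treatments Gda was higher in hippocampus and Vim in cerebellum. The count of genes in this test rested on single libraries: without LLC cerebellum replicate 4 it was 42, and without LLC hippocampus replicate 4 it was 13.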

How the data were processed

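Per the labels' protocols, Trizol-extracted RNA went into TruSeq stranded mRNA libraries for Illumina sequencing. The deposited values are TPM for 47643 gene symbols, and 23222 symbols are at 0 in all 24 libraries. Per the submitters' processing notes the build is mm10; no aligner, counting tool or annotation is named there. TPM keeps no depth, so the reads behind a value are unknown and no counting intervals are given. Each value is a share of its library, so a few abundant transcripts move all others.

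Groups came from the titles. The control contrast was fitted with limma 3.58.1 in R 4.3.3 on log2(TPM + 1) of the 8 control libraries (lmFit, eBayes with a trend), over genes with a mean of at least 1 TPM in either region, two-sided, with Benjamini-Hochberg adjustment at 0.05. The LLC contrast and the LLC minus control difference used the same model on the 8 LLC libraries and on all 16. In data simulated with normal noise over 15326 genes, 50 genes with a mean log2(TPM + 1) above 1 were changed at each fold. The rest were left unchanged, unlike the data, where 82.2% were called. Of genes changed 1.2-fold 42% were recovered, of those changed 1.5-fold 86% and of those changed 2-fold 100%. False calls were 6.29% of all calls in that setting, a share that does not describe the 12591 calls. None of 276 library pairs was identical. Of the tested symbols 96.6% matched GENCODE M21 and 73.8% had a RefSeq promoter window. Alternatives covered pseudocount, filters, scaling, variance model, library weights, the replicate number as a block, the libraries fitted, and leaving out each library; the one without hippocampus replicates 14 and 17 was chosen after seeing the data.

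The comparison and its 42 gene lists were chosen with earlier results of these data known. Named genes are, in each direction, the 12 with the largest log2 difference among called genes whose groups do not overlap, the 6 with the largest TPM difference, up to 4 called members of each list, members of receptor, channel, signalling and other families, and markers that check the dissection. Genes known by identifier only are left out, and some genes the rule takes are not reported here. Dlx2, Dlx5, Emx1, Emx2, Gad2, Meis1, Neurod2, Prox1, Slc1a3, Tdo2 and Uncx were named after their values were seen. Neocortex levels are given without a test.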

Additional observations from a re-analysis of the deposited data

Results flagged for a closer look

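In 357 sets of 4 control libraries of 1 region, over the genes named here with a mean of at least 1 TPM, 25 had 1 library far from the other 3 relative to their range (Dixon's test at 95%). Chance alone gives about 1 in 20 sets. The ranges after "against" are those of the other 3 libraries. Of the 12 in cerebellum 11 belonged to replicate 14, which also had the highest brainstem sum, and the part of brainstem tissue in them was not tested. Cerebellum replicate 14 lay above the others for Coch (12.5 TPM against 10.3 to 10.6) and Scn3b (4.65 TPM against 2.98 to 3.13). Cerebellum replicate 14 lay below the others for Arhgef33 (129 TPM against 147 to 149), Camk2a (35.2 TPM against 39.5 to 39.9), Gad2 (105 TPM against 109 to 110.1) and Homer3 (253 TPM against 275 to 278). It also lay below the others for Klf9 (166 TPM against 198 to 203), Pde5a (36 TPM against 40.3 to 41.2), Ppp1r1b (149 TPM against 164 to 166) and Prkca (30.9 TPM against 37.7 to 38.5). It also lay below the others for Tfap2b (25.2 TPM against 33.8 to 35.3). Cerebellum replicate 15 lay below the others for Whrn (44.1 TPM against 48 to 48.7). Hippocampus replicate 14 lay above the others for Fibcd1 (126 TPM against 101 to 104) and Grid1 (39 TPM against 38.1 to 38.3). Hippocampus replicate 15 lay above the others for Reln (13.1 TPM against 10.4 to 10.6) and Syndig1l (6.89 TPM against 5.63 to 5.72). Hippocampus replicate 15 lay below the others for Camk2a (1393 TPM against 1518 to 1537), Camk2b (401 TPM against 433 to 439) and Enc1 (586 TPM against 610.1 to 614). Hippocampus replicate 16 lay above the others for Klk6 (3.39 TPM against 1.31 to 1.46), Slc1a2 (771 TPM against 674 to 687), Slc1a3 (259 TPM against 225 to 226) and Zic1 (27.8 TPM against 5.05 to 7.61). Hippocampus replicate 16 lay below the others for Grik5 (124 TPM against 132 to 133) and Slc17a7 (1130.2 TPM against 1224 to 1238).

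The regional contrast of 2 genes differed between LLC and control libraries in limma's interaction test: Gda, with an LLC minus control difference of -1.06 log2 units, and Vim, with 1.01. Both are given with their library values above.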

How the results depend on the processing

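Over the control contrast the count of called genes stayed between 10473 (mean of at least 5 TPM) and 14002 (no filter on low values) in every alternative run, against 12591, and between 12164 and 12444 when each library was left out. The share of calls toward hippocampus was 33.1% on TPM, 49.8% with median-ratio scaling and 45.9% with quantile normalization. Calls in LLC libraries ranged from 9118 to 11060 over the left-out libraries. Genes whose contrast differed between LLC and controls numbered 2, and 5 with median-ratio scaling, 6 with quantile normalization and 296 with library weights; leaving out each library gave 2 to 42, and the cause was not tested. Some list counts moved by over 1.5 times. With a mean of at least 5 TPM, counts toward hippocampus fell from 5 to 2 for mossy cells, from 11 to 7 for neocortex layers, from 6 to 3 for striatum and from 2 to 1 for endothelium, and monoamine, acetylcholine, opioid and cannabinoid receptors toward cerebellum fell from 9 to 4, since fewer genes are then tested. With either scaling, ependymal genes toward hippocampus rose from 2 to 4 and sodium and HCN channels from 3 to 5. Choroid plexus genes toward cerebellum fell from 15 to 7 with robust eBayes. With all 24 libraries in 1 fit, astrocyte genes toward hippocampus fell from 5 to 3 and blood cell genes toward cerebellum from 5 to 0. Other such moves, beside those given with the left-out libraries, were of lists with at most 2 members in that direction. No called gene named here changed direction in any alternative run. Scn8a, Neurod2, Prkacb, Camk2g, Gabbr1 and Gabbr2, not called on TPM, were called with median-ratio scaling at 0.25, 0.26, 0.23, 0.18, 0.14 and 0.18 log2 units toward hippocampus. With the replicate block of title numbers the counts were 12710 in controls, 10611 in LLC libraries and 3 for the difference. Same-numbered control libraries had correlated deviations of 0.21, 0.076, 0.12 and 0.16, not all over 0.1, so the number is taken only as a number; each control library did correlate best with its own number, a hint from the data and not the design. LLC replicate 1 did not. TPM keeps no depth, so what limits low genes could not be computed.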

Other observations

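Lists of tissues around the dissections gave mixed contrasts. Of 12 striatal genes 6 were higher in hippocampus, led by the peptide gene Tac1 (7.73 ± 0.494 TPM in hippocampus and 1.26 ± 0.381 TPM in cerebellum) and the dopamine receptor Drd1 (4.12 ± 1.09 TPM in hippocampus and 0.38 ± 0.0523 TPM in cerebellum), and 6 in cerebellum (4 with median-ratio scaling), led by Syndig1l (5.97 ± 0.617 TPM in hippocampus and 29 ± 2.55 TPM in cerebellum) and Ppp1r1b (43.4 ± 8.59 TPM in hippocampus and 161 ± 7.74 TPM in cerebellum). Of 11 genes of thalamus and habenula 3 were higher in hippocampus, with the tachykinin Tac2 first (8.46 ± 0.0942 TPM in hippocampus and 0.608 ± 0.234 TPM in cerebellum), and 6 in cerebellum, where Zic1, Calb2 and Rora, which granule and Purkinje cells express, led. Of 19 neocortical layer genes 11 were higher in hippocampus and 8 in cerebellum. Among them Hs3st4 (102 ± 10.8 TPM in hippocampus and 1.35 ± 0.682 TPM in cerebellum), Fezf2, Tbr1 (21.3 ± 4.75 TPM in hippocampus and 0.371 ± 0.12 TPM in cerebellum) and Rprm (37.9 ± 4.32 TPM in hippocampus and 2.36 ± 0.108 TPM in cerebellum) were far higher in hippocampus, while Calb1, Etv1 (52.1 ± 2.04 TPM in hippocampus and 243 ± 34.9 TPM in cerebellum), Whrn (10.9 ± 1.92 TPM in hippocampus and 47.3 ± 2.12 TPM in cerebellum) and Cux1 (6.27 ± 0.798 TPM in hippocampus and 24.8 ± 1.18 TPM in cerebellum) were higher in cerebellum. Of 8 tested genes of brainstem and deep nuclei 7 were higher in cerebellum, among them osteopontin, Spp1 (12 ± 4.37 TPM in hippocampus and 107 ± 39.8 TPM in cerebellum), and tyrosine hydroxylase, Th (0.594 ± 0.173 TPM in hippocampus and 11.7 ± 0.96 TPM in cerebellum), which Purkinje cells also express. Of 12 ependymal genes 7 were not called, 2 were higher in hippocampus and 3 in cerebellum, the axonemal dynein Dnah11 most (0.674 ± 0.092 TPM in hippocampus and 9.21 ± 0.846 TPM in cerebellum). With median-ratio scaling the ependymal balance turned, to 4 in hippocampus and 2 in cerebellum, as 4 also were higher in hippocampus without hippocampus replicate 15, while without replicates 14 and 17 the counts were 0 and 6.

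The remaining lists split as follows. Mossy cell genes gave 5 of 7 toward hippocampus, with Glipr1 (2.97 ± 0.339 TPM in hippocampus and 0.206 ± 0.129 TPM in cerebellum) first, and 1, Calb2, toward cerebellum. Markers of the dentate neurogenic niche gave 6 of 11 toward hippocampus, with thrombospondin 4, Thbs4 (8.11 ± 2.92 TPM in hippocampus and 0.139 ± 0.0541 TPM in cerebellum), first, and 5 toward cerebellum. Metabotropic glutamate receptors gave 4 of 7 toward hippocampus and 2 toward cerebellum. In the same order, of calls toward hippocampus and then cerebellum, sodium and HCN channels gave 3 and 9 of 14 (5 and 8 with median-ratio scaling), and calcium channels 10 and 11 of 22 (11 and 9, which turns the balance). Calcium-binding and calmodulin genes gave 16 and 11 of 28, and matrix genes 4 and 7 of 12. Blood cell genes gave 0 and 5 of 7, and without cerebellum replicate 15, when more passed the filter, 8 went toward cerebellum. Pan-neuronal genes gave 6 and 6 of 13 (7 and 4 with median-ratio scaling): the ubiquitin hydrolase Uchl1 (804 ± 41.4 TPM in hippocampus and 247 ± 52.2 TPM in cerebellum) was higher in hippocampus and the splicing factor Rbfox3 or NeuN (124 ± 3.72 TPM in hippocampus and 236 ± 14.6 TPM in cerebellum) in cerebellum, so genes used to mark neurons in general ranked the regions differently.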
